A study of Mus musculus with 6 samples.

Results

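The heat shock proteins and the co-chaperones that work with them were measured in pressure-loaded mouse hearts as 80 genes, of 19938 genes with an array row of their own. Members were chosen by gene name: the HSP90, HSP70, HSP110, HSP60, HSP10, small heat shock protein, J protein (Dnaj) and BAG families, with the HSP90 partners Stip1 and Chordc1 and the transcription factor Hsf2. These genes had 103 of the 21789 array rows that carry a single gene symbol, and each gene is represented by its brightest row, averaged over the 6 arrays. The A2aR TG group was 3 male FVB mice with cardiac-specific, inducible over-expression of the adenosine A2a receptor, and the WT group was 3 wild-type littermates. Both groups had transverse aortic constriction (TAC), a surgical narrowing of the aorta that raises the pressure load on the left ventricle, at 8 weeks of age, and the hearts were taken 14 weeks later. The sources used here give neither the promoter of the transgene nor the way it was induced. Hearts without TAC and the level of the receptor gene itself were not analysed here, so the transgene was not checked against the labels. Hsp90ab1, Hspa1b and Hsf1 were not analysed here either, and 10 rows that join a family symbol to other symbols were not used.

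Heat shock proteins bind the exposed segments of unfolded proteins. HSP70 does so in a cycle of ATP hydrolysis that J proteins trigger and that HSP110 and BAG proteins advance by releasing the spent nucleotide. HSP90 acts late in the folding of kinases and receptors. Small heat shock proteins hold unfolded chains without ATP and are abundant in heart muscle, where they associate with the filaments of the sarcomere. The cytosol, the endoplasmic reticulum (ER) and the mitochondria each have chaperones of their own. HSF1 drives many cytosolic and mitochondrial ones through heat shock elements in their promoters, and the unfolded protein response drives ER chaperones through ER stress elements.

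Promoter sequences of 6 members are shown because they carry these elements in the compartments compared here. They come from RefSeq on build GRCm38.p6, in which 65 of the 80 members had a window from 250 bases before to 50 bases after an annotated start. In Chordc1, Hspd1, Hspb8 and Hspb6, capitals mark the heat shock element core, an inverted pair of GAA units 2 bases apart. It was searched on both strands as GAANNTTC and TTCNNGAA, and overlapping matches run together. In Hspa5 and Hsp90b1, capitals mark the ER stress element, a CCAAT box and CCACG with 9 bases between them, on either strand.
Chordc1 (chr9:18292147-18292291, plus strand): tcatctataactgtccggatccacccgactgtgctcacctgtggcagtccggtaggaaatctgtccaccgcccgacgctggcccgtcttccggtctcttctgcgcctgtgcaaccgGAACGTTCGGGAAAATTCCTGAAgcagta
Hspd1 (chr1:55087933-55088102, minus strand): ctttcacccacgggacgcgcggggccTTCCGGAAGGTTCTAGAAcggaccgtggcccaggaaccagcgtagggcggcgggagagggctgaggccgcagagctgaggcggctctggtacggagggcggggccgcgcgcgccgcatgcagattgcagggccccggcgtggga
Hspb8 (chr5:116422840-116422984, minus strand): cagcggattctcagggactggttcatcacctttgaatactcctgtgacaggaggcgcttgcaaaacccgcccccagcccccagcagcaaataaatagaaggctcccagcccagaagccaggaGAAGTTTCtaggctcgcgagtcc
Hspb6 (chr7:30553151-30553300, plus strand): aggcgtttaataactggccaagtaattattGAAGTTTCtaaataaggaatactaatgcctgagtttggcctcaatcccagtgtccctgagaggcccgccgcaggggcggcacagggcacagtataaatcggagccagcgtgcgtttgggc
Hspa5 (chr2:34771970-34772089, plus strand): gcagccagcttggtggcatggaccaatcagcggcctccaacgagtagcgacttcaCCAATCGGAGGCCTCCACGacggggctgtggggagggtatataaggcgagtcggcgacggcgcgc
Hsp90b1 (chr10:86705445-86705669, minus strand): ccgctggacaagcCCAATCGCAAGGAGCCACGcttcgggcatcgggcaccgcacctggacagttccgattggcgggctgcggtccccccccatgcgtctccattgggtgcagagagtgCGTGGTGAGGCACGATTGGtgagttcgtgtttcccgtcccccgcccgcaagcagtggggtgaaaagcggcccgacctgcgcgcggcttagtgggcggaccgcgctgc
The heat shock element core stood in 19 of the 83 member windows (22.9%), against 15.1% of all 32851 windows of the same length. A longer run of 3 alternating units, which contains the core, stood in 7 member windows (8.43%), against 0.603% of all. Its 5 genes were Chordc1, Dnajb6, Hspd1, Hspe1 and Hsph1. Dnajb6 and Hsph1 each entered more than once, through overlapping windows of alternative starts that hold the same run. The count of windows therefore exceeds the number of separate promoters. Hspd1 and Hspe1 lie head to head and their windows share 285 bases, so that both hold the same elements. The ER stress element stood in the windows of Hspa5, Hsp90b1 and Dnajc3 (3.61%), against 0.119% of all. Of the 17 genes with the core, 14 lay lower in A2aR TG hearts, among them the printed Chordc1, Hspd1, Hspb8 and Hspb6. The others, Hspb1, Dnajc10 and Dnajc5g, are not printed. These matches describe the letters of the windows, not binding.

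No chaperone gene passed the test for a difference between A2aR TG and WT hearts, and most members lay slightly lower in the A2aR TG hearts. By limma, with p-values adjusted over all tested rows, 0 of the 80 members had an adjusted p below 0.05, against 0.993% of all genes. Hspb8, a small heat shock protein, and Hspa1l, an HSP70, came nearest, with limma adjusted p = 0.0605 and 0.0995. All differences given here are A2aR TG minus WT on the log2 scale. At an unadjusted p below 0.05, 18 members were lower in A2aR TG hearts, against a background of 8.26% of all genes, and 1 member was higher, against 6.32%. The A2aR TG and WT values did not overlap in 23 members that were lower, against 12.4% of all genes, and in 1 that was higher, against 7.79%.

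In all, 62 of the 80 members (77.5%) lay lower in the A2aR TG hearts, where 53.4% of all genes did. Their differences ran from -0.42 to 0.41 with a median of -0.06, and the median of all genes was -0.01. The split depended on how the arrays were scaled: 57 members lay lower with each array centred on its median, where 46% of all genes did, and 49 with a further quantile normalization, where 51% did. Signal moved with it too, since 67.3% of all genes in the fourth of 5 brightness classes and 62.2% in the brightest class lay lower, against 34.7% in the dimmest. Of the 64 members in the brightest 2 classes, 53 lay lower (82.8%), against 64.7% of the 7976 genes there, and 16 (25%) were lower at an unadjusted p below 0.05, against 13%. The spread of values within an array was 2.052 to 2.066 (SD over rows) in A2aR TG hearts and 2.083 to 2.099 in WT hearts, and its part in the members' differences was not tested. Limma p-values set the difference between the groups against the spread among the 3 mice within each group. That spread is pooled over both groups and drawn toward a prior taken from all tested rows (prior df 4.1). The number of arrays limits the precision of these p-values. In whole hearts, fewer cells of a type and less RNA per cell cannot be told apart.

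**Figure D1:**
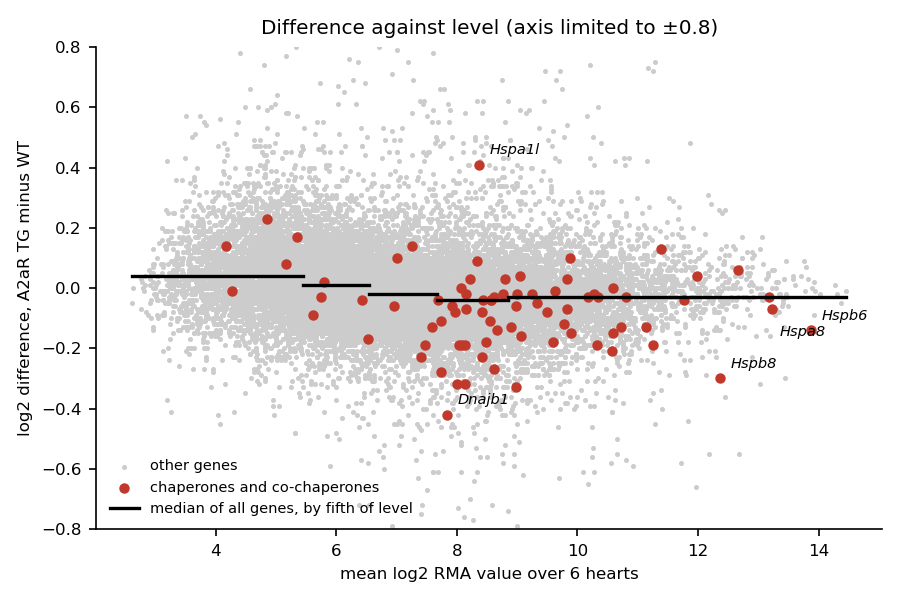
The log2 difference, A2aR TG minus WT (y axis, limited to ±0.8, with 53 genes beyond it), is plotted against the mean log2 value over 6 hearts (x axis) for each gene, with the 80 members in red. Black bars give the median difference of all genes in each of 5 brightness classes, 0.04 in the dimmest and -0.03 in the brightest.

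Among the small heat shock proteins, Hspb8, Hspb3 and Hspb6 were lower in every A2aR TG heart than in any WT heart, while Cryab and Hspb1 overlapped between the groups. Hspb8 partners with Bag3 in the removal of damaged filament proteins. Its log2 values were 12.21, 12.17 and 12.24 in A2aR TG hearts, against 12.48, 12.56 and 12.48 in WT hearts. The difference was -0.30 ± 0.06 (SE, n = 3 each; 95% interval -0.43 to -0.17), a 1.23-fold lower value, with limma adjusted p = 0.0605. This gene was past the threshold when the dimmest 40% of rows were left out (limma adjusted p = 0.0184), with a trended and robust variance prior (0.00401) and with array weights (0.0396), and its adjusted p ran from 0.00401 to 0.21 over all 14 alternatives.

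Hspb3, a muscle small heat shock protein that pairs with Hspb2, stood at 7.97, 7.94 and 8.04 in A2aR TG hearts, against 8.17, 8.25 and 8.48 in WT hearts. The groups did not overlap, and the difference was -0.32 ± 0.09 (SE), with limma adjusted p = 0.151. Hspb6 (Hsp20), a kinase target in heart muscle, was at 13.81, 13.77 and 13.85 in A2aR TG hearts, against 13.93, 13.95 and 13.98 in WT hearts. Its difference was -0.14 ± 0.05 (SE), with limma adjusted p = 0.28. The printed promoters of Hspb8 and Hspb6 each hold 1 core match. In Hspb6 the match begins 120 bases before the annotated start, and in Hspb8 it lies just after the start, within the transcribed bases. The windows of Hspb3 and Hspb1, which are not printed, hold 1 and 2. The other 5 small heat shock proteins overlapped between the groups. Cryab, which protects desmin, was at 12.65, 12.74 and 12.69 in A2aR TG hearts, against 12.62, 12.68 and 12.60 in WT hearts. Its difference was 0.06 ± 0.06 (SE; 95% interval -0.07 to 0.19). Hspb2, Hspb1, Hspb7 and Hspb9 differed by 0.10 ± 0.09, 0.04 ± 0.07, -0.03 ± 0.06 and -0.17 ± 0.08 (SE).

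Hsp90aa1, the stress-inducible cytosolic HSP90, was lower in all A2aR TG hearts than in any WT heart. It had 10.50, 10.47 and 10.43 in A2aR TG hearts, against 10.66, 10.67 and 10.69 in WT hearts. The difference was -0.21 ± 0.05 (SE, n = 3 each), with limma adjusted p = 0.137, and its 3 rows ran from -0.23 to -0.21. A trended and robust variance prior brought it to a limma adjusted p of 0.032. Chordc1, an HSP90 partner whose promoter above has the run of 3 units, was at 8.34, 8.55 and 8.55 in A2aR TG hearts, against 8.84, 8.71 and 8.70 in WT hearts. These values did not overlap, at a difference of -0.27 ± 0.08 (SE) and limma adjusted p = 0.173. Stip1, which hands clients of HSP70 over to HSP90, overlapped and differed by -0.03 ± 0.07 (SE). Hsf2, a heat shock transcription factor, overlapped as well, at -0.06 ± 0.07 (SE).

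The HSP70 genes had no common direction. Hspa1l was the only member at an unadjusted p below 0.05 that was higher in A2aR TG hearts. This HSP70, best known from testis, had 8.48, 8.63 and 8.60 in A2aR TG hearts, against 8.06, 8.06 and 8.36 in WT hearts. The groups did not overlap, and WT replicate 3 was the WT heart nearest to the A2aR TG ones. Its difference was 0.41 ± 0.09 (SE, n = 3 each; 95% interval 0.20 to 0.62), a 1.33-fold higher value, with limma adjusted p = 0.0995. It was past the threshold without the dimmest 40% of rows (limma adjusted p = 0.0418), with a trended and robust prior (0.0285) and without WT replicate 3 (0.0467, at a difference of 0.51), and the adjusted p ran from 0.0285 to 0.274 over its 14 alternatives.

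Hspa1a, the classic heat-inducible HSP70 and a neighbour of Hspa1l, was at 7.82, 7.58 and 8.13 in A2aR TG hearts, against 7.80, 8.29 and 8.39 in WT hearts. WT replicate 1 lay among the A2aR TG hearts, and the difference was -0.32 ± 0.18 (SE), with limma adjusted p = 0.462. It was -0.50 without that heart, -0.19 without A2aR TG replicate 2 and -0.20 without WT replicate 3, and the limma adjusted p ran from 0.239 to 0.714 with 1 heart left out. Its sequence is nearly identical to that of Hspa1b, so its row may hold signal of both. Hspa8, the constitutive HSP70, was at 13.15, 13.23 and 13.18 in A2aR TG hearts, against 13.28, 13.26 and 13.23 in WT hearts. The groups met at 13.23, and the difference was -0.07 ± 0.05 (SE), with -0.09 in each of its other rows. Hspa12a was lower without overlap at -0.13 ± 0.07 (SE; limma adjusted p = 0.431). Hspa14, Hspa12b and Hspa2 overlapped, at -0.08 ± 0.07, -0.03 ± 0.08 and 0.14 ± 0.09 (SE).

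In the HSP110 and BAG families most genes lay lower in A2aR TG hearts, 3 of 3 and 5 of 6 as deposited. After quantile normalization 3 and 4 did. Over all genes 53.4% lay lower, and 64.7% of those in the brightest 2 classes. The HSP110 gene Hspa4 was at 10.50, 10.53 and 10.50 in A2aR TG hearts, against 10.70, 10.58 and 10.70 in WT hearts. The groups did not overlap, at a difference of -0.15 ± 0.06 (SE) and limma adjusted p = 0.295. Its relatives Hspa4l and Hsph1 overlapped, at -0.13 ± 0.08 and -0.14 ± 0.09 (SE). Bag3, which links HSP70 and Hspb8 to autophagy of filament proteins, was at 11.17, 11.14 and 11.18 in A2aR TG hearts, against 11.30, 11.37 and 11.38 in WT hearts. All A2aR TG hearts were below all WT hearts, at -0.19 ± 0.05 (SE) and limma adjusted p = 0.18, or 0.0482 with a trended and robust prior. Bag1, which links HSP70 to the proteasome, was at 9.49, 9.53 and 9.52 in A2aR TG hearts, against 9.66, 9.66 and 9.75 in WT hearts. It did not overlap either, at -0.18 ± 0.06 (SE) and limma adjusted p = 0.207. Bag5 was lower without overlap at -0.19 ± 0.07 (SE; limma adjusted p = 0.28), and Bag4 overlapped at -0.11 ± 0.06. Bag2 and Bag6 overlapped and differed by 0 ± 0.06 and 0 ± 0.07 (SE).

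**Figure D2:**
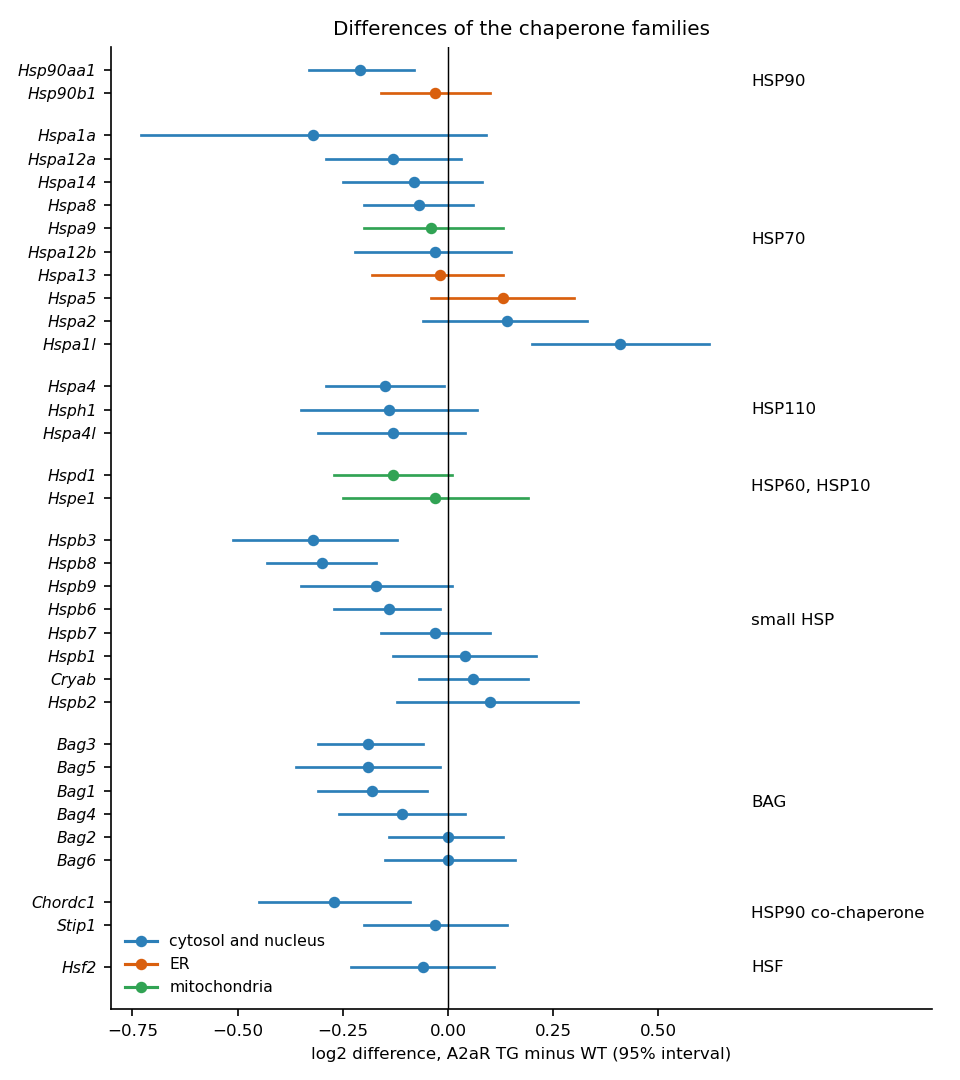
Log2 differences, A2aR TG minus WT, with 95% intervals from limma are drawn for each member outside the J proteins except Hspb11. Members are grouped by family and coloured by compartment. Hspb8, at -0.30, and Hspa1l, at 0.41, lie farthest from 0 relative to their intervals.

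J proteins made up 45 of the members. In A2aR TG hearts 34 of the 45 lay lower (27 after quantile normalization), with a median of -0.04, against 53.4% of all genes and 64.7% of those in the brightest 2 classes. At an unadjusted p below 0.05, 9 of the 45 were lower, all of them named here, against 8.26% of all genes and 13% of those in the brightest 2 classes. Dnaja2, a cytosolic partner of Hspa8, was at 10.24, 10.22 and 10.21 in A2aR TG hearts, against 10.39, 10.41 and 10.43 in WT hearts. Replicates of each group lay close together and the groups did not overlap, at -0.19 ± 0.05 (SE), limma adjusted p = 0.161, or 0.0468 with a trended and robust prior. Dnajb1 (Hsp40), the heat-inducible partner of Hspa1a, was at 7.65, 7.57 and 7.64 in A2aR TG hearts, against 7.63, 8.30 and 8.20 in WT hearts. WT replicate 1 sat at the A2aR TG level. The difference was -0.42 ± 0.16 (SE), a 1.34-fold lower value, with limma adjusted p = 0.268. Without that heart Dnajb1 was past the threshold, at -0.63 and limma adjusted p = 0.0209. Without WT replicate 2 the difference was -0.30, and over its 14 alternatives the adjusted p ran from 0.0209 to 0.528. Dnaja1, which works with Hspa8 and Hspa1a, was at 8.79, 8.94 and 8.70 in A2aR TG hearts, against 8.92, 9.31 and 9.20 in WT hearts. WT replicate 1 was again the lowest WT heart, below 1 A2aR TG heart. The difference was -0.33 ± 0.11 (SE; limma adjusted p = 0.215), and the other row of Dnaja1 gave -0.5 (limma adjusted p = 0.326). With 1 heart left out the difference of the brightest row ran from -0.45, without WT replicate 1, to -0.25, without WT replicate 2. Its limma adjusted p then ran from 0.122 to 0.456.

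Dnajc2, a ribosome-bound J protein, was at 7.17, 7.30 and 7.38 in A2aR TG hearts, against 7.64, 7.45 and 7.46 in WT hearts. It did not overlap, at -0.23 ± 0.08 (SE; limma adjusted p = 0.238). Dnajb5 was at 8.98, 8.98 and 8.99 in A2aR TG hearts, against 9.07, 9.17 and 9.20 in WT hearts. It did not overlap either, at -0.16 ± 0.06 (SE; limma adjusted p = 0.255). Dnajb4 was lower without overlap at -0.13 ± 0.06 (SE; limma adjusted p = 0.339). The other 15 cytosolic J proteins differed by -0.19 to 0.14, with 10 lower in A2aR TG hearts, and of these Dnaja4 and Dnajc27 did not overlap between the groups.

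**Figure D3:**
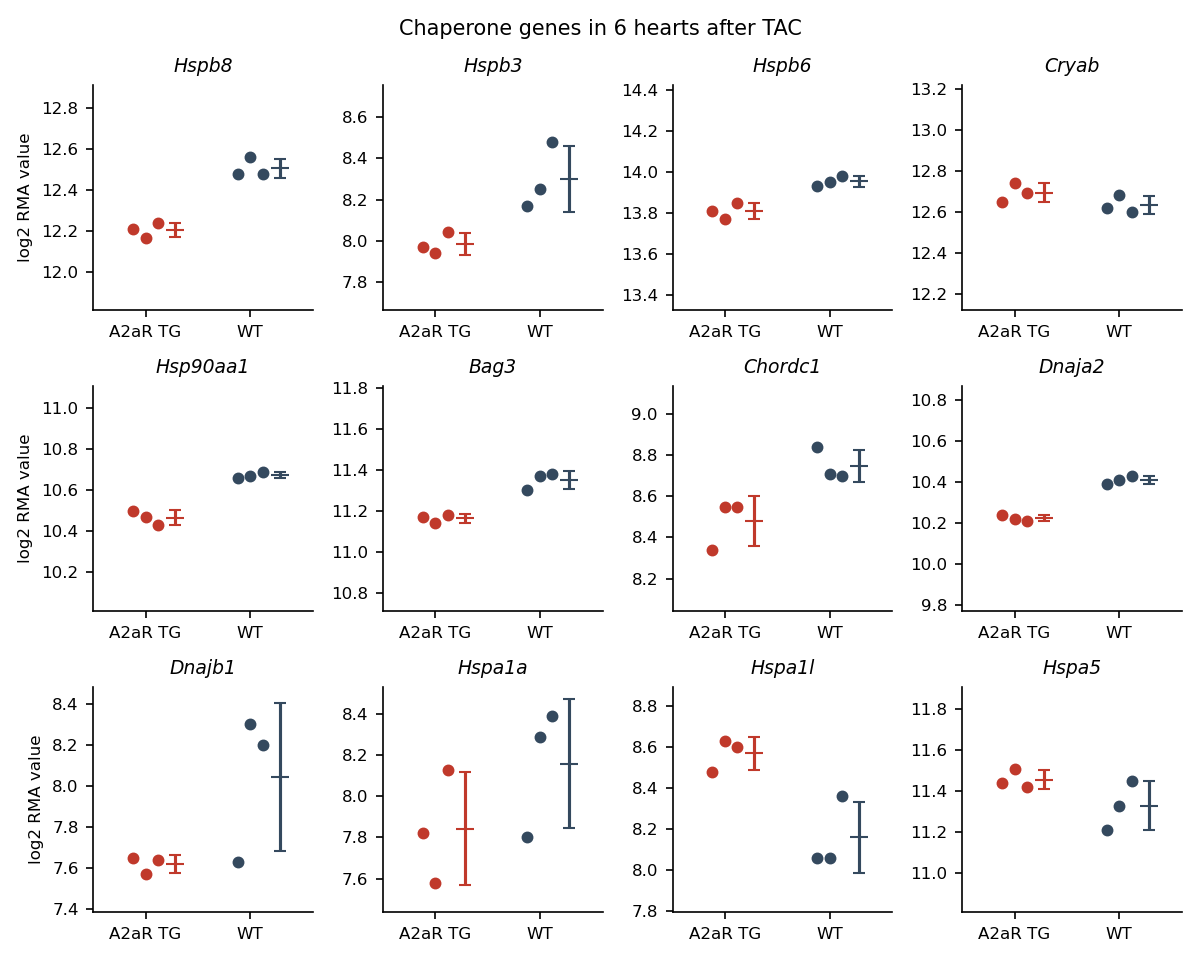
Log2 values of 12 members are plotted for each heart, A2aR TG left and WT right, with the mean and SD of each group (n = 3) beside the points; every panel spans the same range of log2 units. WT replicate 1 is the first WT point and lies at the A2aR TG level for Dnajb1 (7.63) and Hspa1a (7.80).

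In the ER, 9 of 11 J proteins lay lower in A2aR TG hearts (7 after quantile normalization), and Hspa5 and Hsp90b1 overlapped between the groups. Hspa5 (BiP), the ER HSP70 and a standard target of the unfolded protein response, was at 11.44, 11.51 and 11.42 in A2aR TG hearts, against 11.21, 11.33 and 11.45 in WT hearts. The groups overlapped through WT replicate 3, and the difference was 0.13 ± 0.07 (SE; 95% interval -0.04 to 0.30; limma adjusted p = 0.477). Hsp90b1 (GRP94) overlapped at -0.03 ± 0.06 (SE; 95% interval -0.16 to 0.10), and Hspa13 at -0.02 ± 0.07. Dnajc3, the third gene with an ER stress element, overlapped at 0.03 ± 0.05 (SE).

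Dnajc25, a membrane J protein, was at 8.35, 8.31 and 8.22 in A2aR TG hearts, against 8.50, 8.51 and 8.55 in WT hearts. The groups did not overlap, at -0.23 ± 0.06 (SE; limma adjusted p = 0.138). Dnajb14, a J protein of the ER membrane, was at 7.62, 7.64 and 7.53 in A2aR TG hearts, against 7.97, 7.72 and 7.93 in WT hearts. It did not overlap, at -0.28 ± 0.08 (SE; limma adjusted p = 0.167). Dnajb11, a partner of Hspa5 inside the ER, was at 7.92, 7.91 and 8.00 in A2aR TG hearts, against 8.07, 8.14 and 8.18 in WT hearts. It too did not overlap, at -0.19 ± 0.06 (SE; limma adjusted p = 0.207). Dnajb9 and Dnajc14 overlapped at -0.07 ± 0.06 and -0.08 ± 0.06 (SE), and the other 6 ER J proteins, Dnajc3 among them, differed by -0.07 to 0.03.

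The 10 mitochondrial members all lay lower by small amounts as deposited, and 6 of them did after quantile normalization. Hspd1 (HSP60), the chamber of the matrix chaperonin, was at 10.64, 10.64 and 10.67 in A2aR TG hearts, against 10.70, 10.79 and 10.85 in WT hearts. The groups did not overlap, at -0.13 ± 0.06 (SE; limma adjusted p = 0.367). Its other row gave -0.20 (limma adjusted p = 0.174), again without overlap. Hspe1 (HSP10), the lid of that chamber and its neighbour across the shared promoter, overlapped at -0.03 ± 0.10 (SE). Hspa9, the matrix HSP70 of protein import, overlapped at -0.04 ± 0.07 (SE). Dnaja3, its J protein, was at 9.83, 9.81 and 9.81 in A2aR TG hearts, against 9.90, 9.98 and 10.02 in WT hearts. It did not overlap, at -0.15 ± 0.06 (SE; limma adjusted p = 0.279). Dnajc28 and Dnajc15 overlapped, at -0.18 ± 0.10 and -0.02 ± 0.07 (SE), and the other 4 mitochondrial J proteins differed by -0.11 to -0.02, with no overlap in Dnajc11.

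By their brightest rows, J proteins of vesicles and endosomes overlapped between the groups in all 5 cases. Dnajc5, the cysteine string protein of secretory vesicles, differed by 0.03 ± 0.06 (SE), and Dnajc13, which acts on endosomes, by -0.01 ± 0.06. Dnajc13 had 15 rows, all lower in A2aR TG hearts, whose differences ran from -0.25 to 0. Of these, 2 had an unadjusted limma p below 0.05 (-0.17 and -0.15), and in both the groups did not overlap. Dnajc5g, Dnajc5b and Dnajc6, all in the 2 dimmest brightness classes, differed by 0.23 ± 0.12, 0.08 ± 0.12 and -0.03 ± 0.12 (SE). Of the members without an assigned compartment, Dnajc22 overlapped at 0.17 ± 0.10 and Hspb11 was lower without overlap at -0.09 ± 0.05 (SE).

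Set side by side, the compartments differed little in their medians. In the cytosol and nucleus 38 of 49 members lay lower in A2aR TG hearts, with a median of -0.08, and 14 were lower and 1 higher at an unadjusted p below 0.05. In the ER 11 of 14 lay lower, with a median of -0.05, and 3 were lower at that level. In the mitochondria 10 of 10 lay lower, with a median of -0.05, and 1 was lower at that level. Over all genes 53.4% lay lower, and in the brightest 2 classes 64.7% did. At an unadjusted p below 0.05, 8.26% of all genes were lower and 6.32% higher, and 13% were lower in the brightest 2 classes. By the brightest row of each gene, the mitochondrial count at that level, 1 of 10, was near that background. The count depends on the row of Hspd1: its brightest row had an unadjusted limma p of 0.0622, and its other row 0.00848. Among the vesicle and endosome members 2 of 5 lay lower, with a median of 0.03. Dnajc5g, Dnajc5b and Dnajc6 lay in the 2 dimmest brightness classes, where 34.7% and 44.7% of all genes lay lower. The part of brightness in this median was not tested. With a further quantile normalization the counts became 33 of 49, 8 of 14, 6 of 10 and 1 of 5, and the ER median became -0.01. Leaving out A2aR TG replicate 3 moved the cytosolic median to -0.13 and the mitochondrial one to -0.09, and the mitochondrial median was -0.11 without WT replicate 1 and -0.02 without WT replicate 3. The difference between compartments was not tested. Members with a heat shock element core (17 genes, 14 of them lower) had a median difference of -0.14, and the 48 without one had -0.04. For the run of 3 units the medians were -0.13 over 5 genes with it, Dnajb6 (-0.04) and Hspe1 (-0.03) among them, and -0.07 over 60 without it. As 77.5% of all members lay lower, the count with the core is close to that of the members as a whole, and no relation to the element was tested.

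**Figure D4:**
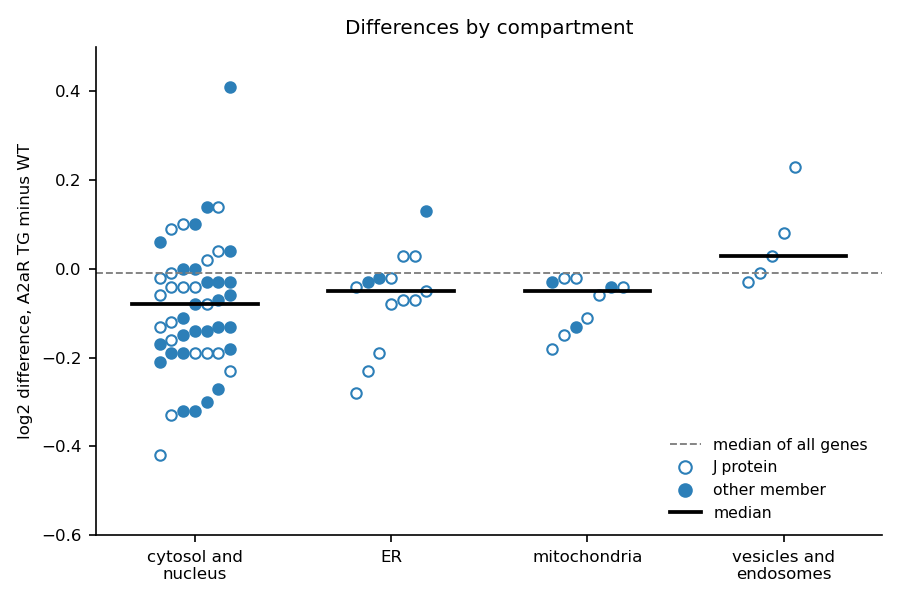
Each point is the log2 difference, A2aR TG minus WT, of 1 member in its compartment, with J proteins as open circles; black bars are medians and the dashed line is the median of all genes, -0.01. The medians are -0.08 in the cytosol and nucleus, -0.05 in the ER, -0.05 in the mitochondria and 0.03 for vesicles and endosomes.

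Other genes of the same pathways were read from 4 lists. Over all genes 53.4% lay lower and 0.993% were called. At an unadjusted limma p below 0.05, 8.26% were lower and 6.32% higher. In the brightest 2 classes 64.7% lay lower, and 13% were lower at that level. Of 31 cytosolic co-factors, 20 lay lower (64.5%) and 0 were called by limma, with a median of -0.04, and 5 were lower at an unadjusted p below 0.05. The smallest p-values belonged to St13, an HSP70 partner, at -0.21 ± 0.05 (SE; limma adjusted p = 0.133), and to the chaperonin subunits Cct8 (-0.22, 0.197), Cct6a (-0.16, 0.275) and Cct4 (-0.18, 0.275). Of 24 ER folding and unfolded protein response genes, 12 lay lower and 12 higher, with a median of -0.01. At an unadjusted limma p below 0.05, 3 were higher and 2 lower, and 1 was called after adjustment. That gene was Derl3, part of the machinery that removes misfolded ER proteins, which rose in A2aR TG hearts. It was at 7.59, 7.44 and 7.71 in A2aR TG hearts, against 6.63, 6.79 and 6.88 in WT hearts, a difference of 0.81 ± 0.09 (SE, n = 3 each) with limma adjusted p = 0.00737. Sdf2l1, an ER partner of Dnajb11, differed by 0.48 ± 0.09 (SE; limma adjusted p = 0.0605), Ern1 by -0.18 (0.253) and Creld2 by 0.17 (0.262).

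Of 19 measured mitochondrial import, folding and protease genes, 10 lay lower (52.6%, against 53.4% of all genes) and 0 were called by limma, with a median of -0.02. At an unadjusted limma p below 0.05, 1 was lower, against 8.26% of all genes. The protease subunit Afg3l2 differed by -0.15 ± 0.06 (SE; limma adjusted p = 0.275), Clpx by -0.18 (0.419), Clpb by -0.11 (0.48) and Grpel2 by 0.12 (0.531). Of 13 filament clients and genes of chaperone-assisted autophagy, 9 lay lower and 0 were called by limma, with a median of -0.03. At an unadjusted limma p below 0.05, 1 was higher, against 6.32% of all genes. The autophagosome protein Map1lc3a differed by 0.43 ± 0.09 (SE; limma adjusted p = 0.0785) and the small heat shock protein client Des by -0.14 (0.399), while Wdr1 and Flnc both differed by -0.10 (0.484 and 0.533).

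Markers of other cell types were read from lists of their own. Over all genes 53.4% lay lower and 0.993% were called by limma. At an unadjusted limma p below 0.05, 8.26% were lower and 6.32% higher. All 9 measured macrophage markers lay higher in A2aR TG hearts, with a median of 0.36, and their mean log2 value was 8.78 to 8.86 in A2aR TG hearts and 8.36 to 8.53 in WT hearts. Of these Lgals3 passed the test (0.61, limma adjusted p = 0.00423). The 9 cardiomyocyte markers, the defining genes of the labelled tissue, had means of 13.53 to 13.58 in A2aR TG hearts and 13.51 to 13.56 in WT hearts. Of the 9, 6 lay lower, with a median of -0.01. Ryr2 was higher without overlap (0.25, limma adjusted p = 0.149), the only marker of this list at an unadjusted limma p below 0.05. In the smooth muscle list Acta2 rose (0.73, limma adjusted p = 0.0106), but the other 4 markers, Tagln, Smtn, Myh11 and Cnn1, differed by -0.07 to 0.08, and the list median was -0.03. Of the 2 red blood cell markers Alas2 fell (-0.77, adjusted p = 0.00486 by limma), and Slc4a1 differed by -0.02. By limma no gene passed the test in the fibroblast, endothelial, lymphocyte and adipocyte lists, whose medians were 0, -0.06, 0 and -0.06 over 7, 6, 7 and 4 measured markers; 1 endothelial and 3 lymphocyte markers had an unadjusted p below 0.05. The part of these cells in the chaperone differences was not tested.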

How the data were processed

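RNA of 6 hearts (100 ng each) was hybridised to Affymetrix Mouse Gene 1.0 ST arrays. The deposited values are log2 expression values made by the authors with RMA and Partek, per the submitters' processing notes; versions, settings and build were not given in the sources used here. Of 28853 rows, 21789 with a single symbol in the platform annotation were fitted with limma 3.58.1 in R 4.3.3 (lmFit, eBayes, A2aR TG minus WT), with Benjamini-Hochberg adjustment over those rows and a threshold of 0.05; the procedure was tested on simulated data. Each gene took its brightest row. Rows of 1 gene may share sequence and are not independent. Probes of different genes were not compared in level. Compartments and lists come from textbook knowledge. The members and lists were chosen with earlier results of these data known. All members outside the J proteins are named; of the J proteins, those with an unadjusted p below 0.05 and, in each compartment, the 2 brightest and the 2 with the largest difference; of each list, called genes and up to 4 with the smallest p. Alternatives changed scaling, dim rows, variance prior, array weights, pairing, rows, threshold and replicates.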

Additional observations from a re-analysis of the deposited data

How the results depend on the processing

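Across 14 alternatives, 1100 recomputed member differences stayed on their side of the threshold and 10 passed it, each in its reported direction. The count of members called was 0 as reported, 2 without the dimmest 40% of rows (Hspa1l and Hspb8), 5 with a trended and robust variance prior (Bag3, Dnaja2, Hsp90aa1, Hspa1l and Hspb8) and 1 with array weights (Hspb8). It was 2 at an adjusted p below 0.10 and 19 at an unadjusted p below 0.05. Leaving out 1 heart gave 0 to 1 members: Dnajb1 without WT replicate 1 and Hspa1l without WT replicate 3. Over all rows 209 were called, 113 higher and 96 lower, against 493 without the dimmest rows (184 higher, 309 lower), 579 with the trended and robust prior (240 higher, 339 lower), and 84 to 147 with 1 heart left out. The replicate block called 97 rows and 0 members; same-numbered hearts correlated at 0.16, -0.01 and -0.10 in their deviations from the group means, so the numbers were not shown to pair them. With a further quantile normalization the members' median was -0.03 and the ER median -0.01. The cytosolic median was -0.11 without the dimmest rows and -0.13 to -0.08 with 1 heart left out; the members' median was then -0.07 to -0.06. The causes of these shifts were not tested. Without the dim rows, fewer rows were tested and the variance prior was fitted to the kept rows only. The parts of these changes were not separated. With 3 hearts a group, the median standard error over rows was 0.0731, which limits how small a difference can be called.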
